A study of Mus musculus with 6 samples.

Results

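The lysosomal genes described here were 44 genes: 16 genes of the vacuolar proton pump (V-ATPase), and 28 genes for lysosomal membrane proteins, hydrolases, cholesterol exporters and the regulator TFEB, with cathepsins left out. They were taken by gene symbol, and all 44 were among the 21851 genes of the deposited count table. All 44 also passed the filter on low counts, which kept 13477 genes for testing. RNA was measured in 6 libraries of sorted mouse retinal cells, 3 labelled CD36 CKO and 3 labelled CD36 flox. CD36 is a scavenger receptor that takes up fatty acids and oxidised lipoproteins. CKO stands for a conditional knockout of Cd36, and the flox libraries, by their titles from mice with the floxed gene, are its control. The sample codes of the flox libraries begin with WT, so titles and codes name the control genotype differently. The sort kept CD45-positive cells of intermediate CD11b, a gate meant for microglia, and cDNA was made by Smart-seq2, a full-length method. The protocol shared by all samples describes NaIO3 (sodium iodate), which damages pigment epithelium of the retina by oxidation. The stated dose was 20 mg/kg by vein, PBS was the control injection, and tissue was taken 7 days later. The labels do not say which of these a library received, which Cre driver deleted Cd36, or the age of the mice. Sample codes place CKO 2 and CKO 3, and likewise flox 2 and flox 3, as right and left eye under the same mouse code, so 3 libraries a group may stand for fewer mice, and p-values over libraries are then too small.

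The lysosome digests material brought in by endocytosis, phagocytosis and autophagy, and in microglia it handles photoreceptor debris and the lipid that comes with it. The V-ATPase acidifies its lumen: the cytosolic V1 sector hydrolyses ATP and the membrane V0 sector carries protons. Acid hydrolases then break lipids, glycans and proteins, cholesterol freed from esters leaves through NPC2 and NPC1, and the transcription factor TFEB switches on many of these genes through a promoter element called CLEAR. Cholesterol-laden phagocytes depend on this route. The series title joins CD36 to lipid accumulation in microglia, and the comparison asks how these genes stand in libraries labelled CKO against those labelled flox.

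The core of the CLEAR element was looked up in the promoters of the 44 genes, because TFEB is known to act on many lysosomal genes through that element. RefSeq promoter windows (GRCm38.p6, 250 bases before to 50 bases after the start site) were at hand for 36 of them. The 8-base core TCACGTGA, which reads the same on both strands, was in 6 of the 36 windows (16.7%), against 304 of 27025 genes with a window (1.12%). The shorter E-box CACGTG, which lies inside that core, was in 13 of the 36 (36.1%), against 8.09% of all genes. The stretches around the 8-base core are shown 5′ to 3′ along the gene, with the core in capitals. They come from the minus strand at chr8:105566035-105566094 for Atp6v0d1, chr16:44139358-44139417 for Atp6v1a, chr7:126583325-126583384 for Cln3 and chrX:134601167-134601226 for Gla. Those of Atp6v0e, at chr17:26676372-26676431, and of Mcoln1, at chr8:3500447-3500506, come from the plus strand.
Atp6v0d1: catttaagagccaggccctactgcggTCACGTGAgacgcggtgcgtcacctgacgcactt
Atp6v0e: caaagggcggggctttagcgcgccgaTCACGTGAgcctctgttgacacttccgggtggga
Atp6v1a: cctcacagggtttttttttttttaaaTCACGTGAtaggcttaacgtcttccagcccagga
Cln3: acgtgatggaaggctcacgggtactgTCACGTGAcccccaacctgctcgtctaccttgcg
Gla: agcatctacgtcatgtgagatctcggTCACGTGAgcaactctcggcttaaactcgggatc
Mcoln1: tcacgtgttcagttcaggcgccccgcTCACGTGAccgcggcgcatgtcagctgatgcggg
The core started between 228 bases upstream and 2 bases downstream of the start site, and the Gla window held it at 2 places. A match is a description of these letters, not evidence that a factor binds there.

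The libraries held 13462683 to 20018910 counts. The 44 genes took 1.23%, 1.68% and 1.58% of all counts in CKO 1 to 3, and 1.40%, 1.43% and 1.48% in flox 1 to 3. Cd36 itself stood at 122, 65.2 and 28.5 CPM (counts scaled so that library totals match) in CKO 1 to 3. In flox 1 to 3 it stood at 90.4, 193 and 144 CPM. The library labelled CKO 1 thus held more Cd36 than flox 1, and every direction given here follows the labels. By edgeR's quasi-likelihood test the log2 fold change of Cd36, CKO over flox, was -0.98 (SE 0.51, unadjusted p = 0.0896, adjusted p = 0.9996). Cd36 therefore did not pass the test, and its groups overlap. All CPM values of genes are scaled by TMM, a correction for library composition. Microglial markers were counted in every library (12 of 12 in the table) and summed to 7757, 12436 and 11163 CPM in CKO and 8035, 12622 and 10989.5 CPM in flox. Markers of rods, photoreceptors that the gate should leave out, summed to 22575, 9303 and 8423 CPM in CKO and 8909, 12604 and 19307 CPM in flox. Haemoglobin transcripts were above 100 CPM in CKO 1, flox 2 and flox 3 and below 1 CPM in CKO 2, CKO 3 and flox 1. These contents move with some of the values below, and their part in them was not tested. In such bulk libraries fewer cells of a type and less RNA per cell cannot be told apart.

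No lysosomal gene of the set passed the test between CKO and flox. With edgeR's quasi-likelihood test, 0 of 44 members and 0 of 13477 genes (0%) were called, and the Benjamini-Hochberg adjusted p of every member was 0.9996 or 0.9997. At an unadjusted p under 0.05 there was 1 member, Arsb, which is 2.27% of the set, against 2.81% of all genes tested (1.45% higher and 1.37% lower in CKO). DESeq2 called 0 members and 23 genes in all (0.150%), with 1 member at an unadjusted p under 0.05, against 3.21% of all genes with a p. limma-voom, run with a quality weight for each library, called 0 members (0% of all genes). It had 4 members at an unadjusted p under 0.05, against 5.48% of all genes. The log2 fold change was positive, meaning higher in CKO, for 35 of 44 members (79.5%), against 50.6% of all genes tested. With library totals as the only scaling, which moves the median of all genes to -0.12, 20 of 44 were positive and 31 lay above that median. The median over the members was 0.13, against 0.00374 over all genes, while the libraries of a group differed in their own median over the members by an SD of 0.19. The median was 0.032 without CKO 2, 0.083 without flox 1 and 0.21 without CKO 1, and 24, 26 and 36 members were then positive. It thus depends on the libraries kept, lower without CKO 2 or flox 1 and higher without CKO 1. The CKO and flox ranges stood apart with CKO higher for 1 member, Sgsh (2.27%), against 3.88% of all genes, and with CKO lower for 0 members, against 4.12%. Without CKO 1 the count was 15 members (34.1%), all with CKO higher, against 27.5% of all genes apart in either direction and 13.8% with CKO higher. Over the other left-out libraries it was 2 to 6 members (4.55% to 13.6%), in each case a smaller share than over all genes, where it reached 21.7%. With the libraries of a shared mouse code summed, the median over the members was 0.059 and 32 were positive.

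**Figure D1:**
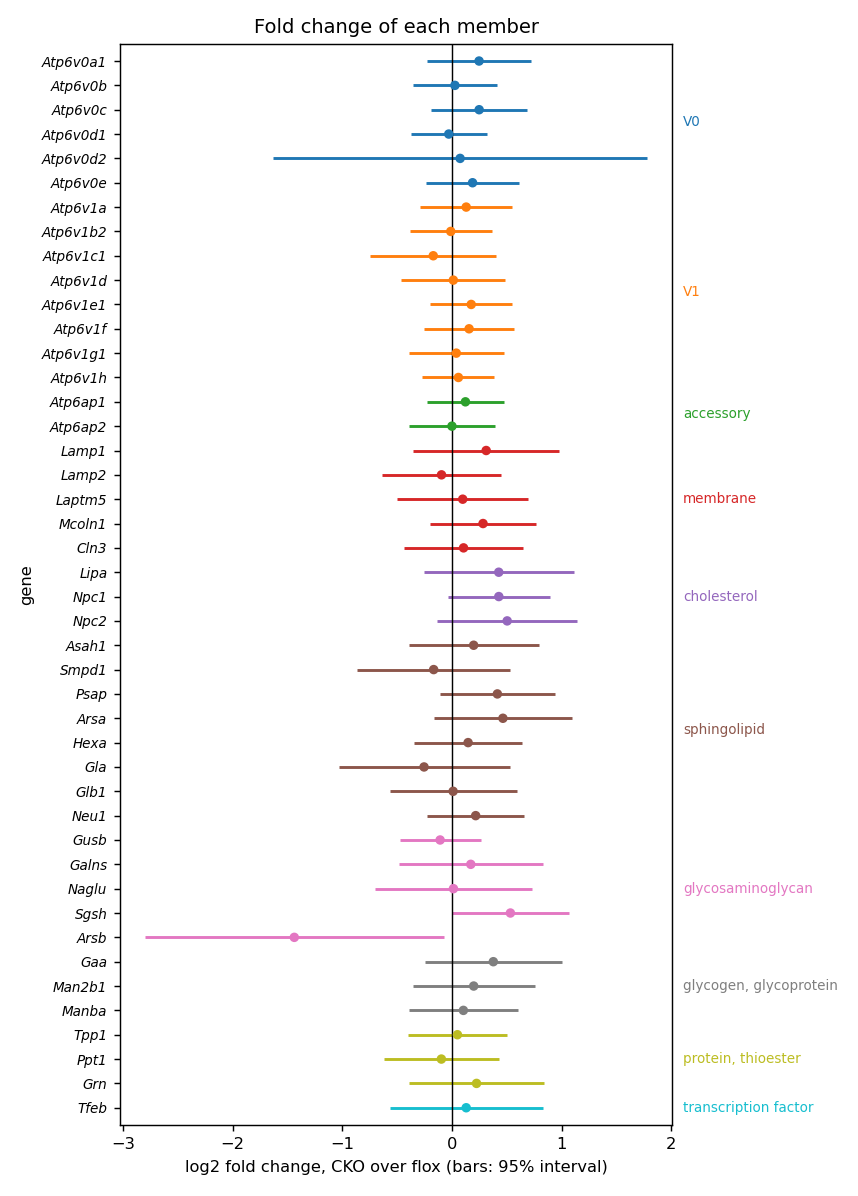
Log2 fold change, CKO over flox, of each of the 44 members (points) with its 95% interval from edgeR's quasi-likelihood fit (bars), grouped by role. Every interval but that of Arsb spans 0, and 36 of the 44 lie within a 2-fold change in either direction.

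The intervals give the differences that remain compatible with each fit, taking the 3 libraries of a group as independent. If libraries of a shared code come from 1 mouse, the intervals are too narrow. For 36 of 44 members the 95% interval of the fold change lay between a halving and a doubling (0.5 and 2), and the median upper bound was 1.54-fold. The widest were those of Atp6v0d2, from 0.323-fold to 3.43-fold, and of Arsb, from 0.144-fold to 0.948-fold. A fold change beyond 2 in either direction lay outside the interval of those 36 members on that assumption, which does not show that the groups are alike.

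V0 sector genes, which build the proton-conducting part of the pump, had a median log2 fold change of 0.13, as did the whole set. Of 6 members 5 were positive and 1 was negative, and 0 passed. Atp6v0c, which encodes the proteolipid c subunit of the rotor ring, stood at 1347, 1991 and 1767 CPM in CKO 1 to 3 and at 1461, 1289.8 and 1547 CPM in flox 1 to 3. CKO 2 and CKO 3 were above all flox libraries and CKO 1 was below flox 1, so the groups overlap (log2 fold change 0.25, SE 0.19, unadjusted p = 0.230). Atp6v0a1, a subunit that lines the proton path, had 63.5, 44.5 and 42.6 CPM in CKO and 36.9, 45.0 and 44.9 CPM in flox. There the highest library was CKO 1 and the other five lay close together (log2 fold change 0.25, SE 0.21). Without CKO 1 its log2 fold change was 0.039.

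The d subunit, which couples the V1 stalk to the ring, has 2 genes in the set, far apart in level. Atp6v0d1, the widely expressed form, averaged 207 ± 16.4 CPM in CKO and 211 ± 15.1 CPM in flox (SD, n = 3 each). Its 6 libraries spanned 189.8 to 228 CPM, with a log2 fold change of -0.029 (SE 0.15). Atp6v0d2, the form known from osteoclasts and macrophages, stood at 5.27, 2.51 and 7.09 CPM in CKO and 1.69, 2.23 and 10.3 CPM in flox. These levels rest on 86, 30 and 138 counts in CKO and 35, 43 and 163 counts in flox. Its highest and lowest library, both flox, differed 6.08-fold, and the groups overlap fully (log2 fold change 0.075, SE 0.74). Flox 3, its highest library, also held the most transcripts of retinal pigment epithelium markers, 313 CPM against 48.5 to 159 CPM in the other five, and their part in this value was not tested. Per kilobase of exon, Atp6v0d1 stood at 115 CPM in CKO and 118 CPM in flox, and Atp6v0d2 at 1.82 CPM in CKO and 1.75 CPM in flox. Of the other V0 genes, Atp6v0b, a second proteolipid, averaged 546 ± 44.3 CPM in CKO and 536 ± 73.0 CPM in flox. A gene on the opposite strand covers 11.8% of the exon bases of Atp6v0b. The e subunit gene Atp6v0e averaged 595 ± 117 CPM in CKO and 522 ± 11.0 CPM in flox.

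V1 sector genes, which encode the ATP-hydrolysing head and its stalks, had a lower median log2 fold change, 0.050. Of 8 members 6 were positive and 2 negative, and 0 passed. The stalk subunit gene Atp6v1e1 stood at 234, 234 and 189.7 CPM in CKO and at 173, 203 and 206 CPM in flox (log2 fold change 0.18, SE 0.16, unadjusted p = 0.310). A pair of CKO libraries lay above all flox libraries and CKO 3 lay inside their range. Atp6v1f, a rotor subunit gene, stood at 340.3, 462 and 480.03 CPM in CKO and 359, 386 and 405 CPM in flox (log2 fold change 0.16, SE 0.18). CKO 1 was its lowest library and CKO 3 its highest. The catalytic A subunit gene Atp6v1a averaged 144 ± 18.4 CPM in CKO and 132 ± 20.9 CPM in flox, and the B subunit gene Atp6v1b2 averaged 209.8 ± 18.6 CPM in CKO and 211 ± 25.2 CPM in flox. The steadiest member of the whole set was the regulatory H subunit gene Atp6v1h, whose highest library was 1.15 times its lowest, at 90.9 ± 1.84 CPM in CKO and 87.2 ± 5.75 CPM in flox. The largest negative value in the sector was that of the C subunit gene Atp6v1c1, at 118 ± 28.1 CPM in CKO and 133 ± 36.9 CPM in flox.

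Of the pair of accessory protein genes 0 passed the test. Atp6ap1, whose product helps assemble the pump, stood at 271, 312 and 254 CPM in CKO and 262, 249 and 257 CPM in flox (log2 fold change 0.12, SE 0.15). Atp6ap2, also known as the prorenin receptor, averaged 318 ± 50.4 CPM in CKO and 318 ± 17.8 CPM in flox. Its sign turned with several settings. Summed over all 16 V-ATPase genes, the level was 4702, 6079 and 5609.9 CPM in CKO and 4855, 4743 and 5411 CPM in flox. CKO 1 had the lowest and CKO 2 the highest sum, so the CKO range enclosed the flox range.

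Some lysosomal membrane protein genes varied widely between libraries of the same group. Of 5 members 4 were positive and 1 negative, and 0 passed. Lamp1, a heavily glycosylated coat protein of the lysosomal membrane, stood at 442, 721 and 553 CPM in CKO and 291, 494 and 597 CPM in flox (log2 fold change 0.31, SE 0.29). Its lowest library was flox 1 and its highest CKO 2, and its values had decimals in all 6. Grtp1 on the opposite strand covers 9.31% of its exon bases, so its counts may be shared with that gene. Without flox 1 its log2 fold change was 0.069. Laptm5, a lysosomal transmembrane protein of blood-lineage cells, stood at 990.1, 1566 and 1125 CPM in CKO and at 915, 1537 and 987 CPM in flox (log2 fold change 0.099, SE 0.26). It was high in 1 library of each group, CKO 2 and flox 2. Mcoln1, the gene of the calcium channel TRPML1, stood at 26.8, 33.6 and 30.4 CPM in CKO and 25.5, 19.8 and 29.3 CPM in flox (log2 fold change 0.28, SE 0.21). CKO 1 lay inside the flox range. Lamp2, needed for fusion with autophagosomes, averaged 475 ± 137 CPM in CKO and 508 ± 83.7 CPM in flox, and Cln3, the gene of a lysosomal membrane protein lost in juvenile Batten disease, averaged 47.4 ± 15.3 CPM in CKO and 44.0 ± 2.29 CPM in flox.

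**Figure D2:**
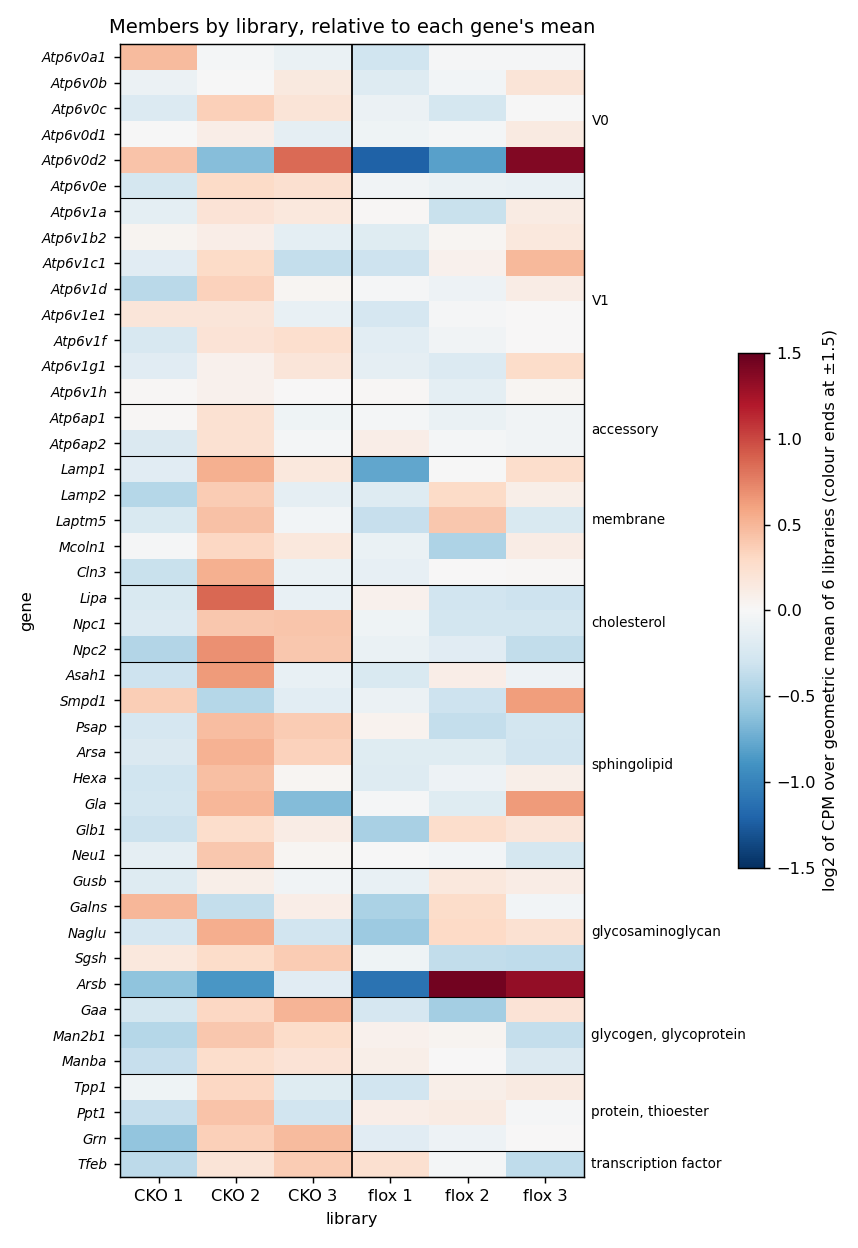
Level of each member in each library as log2 of its CPM over the geometric mean of the 6 libraries, with CKO libraries left of flox libraries and rows grouped by role. CKO 2 is the highest library for 24 of 44 members and CKO 1 the lowest for 15, and Arsb and Atp6v0d2 vary most.

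The genes that free and export cholesterol had the highest median log2 fold change of the 10 role classes, 0.43, without passing the test. All 3 were positive, and 0 passed. Npc2, the soluble protein that binds cholesterol in the lumen, stood at 961, 2105 and 1734 CPM in CKO and 1219, 1157 and 1009 CPM in flox (log2 fold change 0.50, SE 0.28, unadjusted p = 0.105). CKO 2 and CKO 3 were above all flox libraries, and CKO 1 was the lowest of all. Npc1, the membrane exporter that receives cholesterol from NPC2, stood at 70.6, 107 and 108 CPM in CKO and 78.1, 67.5 and 67.2 CPM in flox (log2 fold change 0.43, SE 0.20, unadjusted p = 0.0666). CKO 1 lay between flox 1 and flox 2, the others above both. Npc1 values had decimals in all 6 libraries, and a gene on the opposite strand covers 4.52% of its exon bases, so its counts may be shared. Lipa, the acid lipase that hydrolyses cholesteryl esters and triglycerides, stood at 153, 324 and 166 CPM in CKO and 187, 146 and 145 CPM in flox (log2 fold change 0.43, SE 0.30). Only CKO 2 was above flox 1, and without CKO 2 the value of Lipa was -0.0057. Without CKO 2 the log2 fold change of Npc2 was 0.25. With the libraries of a shared code summed, the values were 0.29 for Npc2, 0.29 for Npc1 and 0.18 for Lipa.

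The 3 genes together summed to 1185, 2537 and 2008 CPM in CKO and 1484, 1371 and 1220.4 CPM in flox. Markers of border-associated macrophages had an order with the same top 3 libraries, with sums of 847, 1859 and 1405 CPM in CKO and 1005, 756 and 626 CPM in flox. That sum was set by 1 gene, Ms4a7, at 416, 1691 and 1238 CPM in CKO and 759.6, 393 and 436 CPM in flox. Of the 8 markers 3 were positive and 5 negative. Over the 6 libraries Pf4 spanned 79.2 to 265 CPM, Mrc1 23.9 to 53.0 CPM, Folr2 19.0 to 63.3 CPM, F13a1 5.52 to 29.0 CPM and Cbr2 1.21 to 25.7 CPM. Cd163 stood between 0.514 and 5.94 CPM and Lyve1 between 0.0632 and 3.52 CPM. The monocyte and lymphocyte lists had the same top 3 libraries, CKO 2, CKO 3 and flox 1. Monocyte markers summed to 819.8, 937 and 1125 CPM in CKO and 863, 833 and 692 CPM in flox, with 9 of 11 positive. T, NK and B cell markers summed to 57.0, 130.5 and 135 CPM in CKO and 120.4, 93.6 and 97.7 CPM in flox. Müller glia and astrocyte markers, with 8 of 8 positive but another order of libraries, summed to 1137, 1258 and 2643 CPM in CKO and 1439.8, 1360.1 and 749 CPM in flox. The part of these cell types in the cholesterol gene values was not tested.

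Genes for sphingolipid and ganglioside breakdown were led by Psap, which encodes prosaposin, the precursor of the saposin activators. Of 8 members 6 were positive and 2 negative, 0 passed, and the median was 0.17. Psap had the highest level per kilobase of exon of the 44, at 1053 CPM in CKO and 789.7 CPM in flox. By library it stood at 2067, 3402 and 3197 CPM in CKO and 2548, 1917 and 2036 CPM in flox (log2 fold change 0.41, SE 0.23, unadjusted p = 0.107). CKO 1 lay inside the flox range and the other CKO libraries above it, and with the libraries of a shared code summed the value was 0.24. Arsa, the sulphatase that starts sulphatide breakdown, stood at 9.25, 15.5 and 13.6 CPM in CKO and 9.49, 9.48 and 8.78 CPM in flox (log2 fold change 0.47, SE 0.27). The flox libraries were within 1 CPM of each other, and CKO 1 lay among them. The other positive genes were Asah1 (acid ceramidase), Hexa (the alpha subunit of hexosaminidase), Neu1 (a sialidase) and Glb1 (beta-galactosidase), with log2 fold changes of 0.20, 0.15, 0.22 and 0.011. Arsa and Hexa share 18.8% and 12.8% of their exon bases with a gene on the opposite strand. Negative values were those of Gla, alpha-galactosidase A, at 29.8 ± 12.7 CPM in CKO and 35.5 ± 11.3 CPM in flox, and of the acid sphingomyelinase gene Smpd1, at 27.7 ± 7.96 CPM in CKO and 31.1 ± 11.1 CPM in flox.

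Glycosaminoglycan-degrading genes held both ends of the set. Of 5 members 3 were positive and 2 negative, and 0 passed. Sgsh (chromosome 11, 119343425 to 119355536, minus strand, GRCm38), the sulphamidase that acts on heparan sulphate, stood at 13.5, 14.6 and 15.8 CPM in CKO and 11.6, 9.42 and 9.35 CPM in flox. Every CKO library was above every flox library, and the log2 fold change was 0.53 (SE 0.23, unadjusted p = 0.0507, adjusted p = 0.9996 by edgeR). With any 1 library left out its log2 fold change stayed between 0.48 and 0.64. A gene on the opposite strand, Card14, covers 21.6% of its exon bases.

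Arsb (chromosome 13, 93771630 to 93943016, plus strand, GRCm38), the sulphatase that acts on dermatan and chondroitin sulphate, stood at 44.9, 37.2 and 60.9 CPM in CKO and 31.7, 186 and 169.9 CPM in flox. Flox 2 and flox 3, which share a mouse code, were far above the other four libraries, and flox 1 was the lowest of all. The log2 fold change was -1.44 (SE 0.58, unadjusted p = 0.0410, adjusted p = 0.9996 by edgeR), yet against flox 1 alone the haemoglobin-free CKO libraries were higher (log2 ratio 0.63). Among the haemoglobin-containing libraries the log2 ratio was -1.99, and with the haemoglobin class as a term in the fit it was -0.68. Its counts are uncertain, since 32.3% of its exon bases lie in another gene on the opposite strand, the strand setting of the counting is not given in the sources used here, and its values held decimals in 5 libraries. Gusb, beta-glucuronidase, had the highest level per length of this class and averaged 319.9 ± 31.0 CPM in CKO and 345 ± 34.2 CPM in flox (log2 fold change -0.11, SE 0.16). Galns and Naglu, which act on keratan sulphate and heparan sulphate, had log2 fold changes of 0.17 and 0.014.

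Glycogen and glycoprotein enzymes were all positive, 3 of 3, with 0 passing. Gaa, the acid glucosidase that degrades glycogen, stood at 21.1, 31.4 and 36.2 CPM in CKO and 21.3, 17.8 and 29.3 CPM in flox (log2 fold change 0.38, SE 0.27). Man2b1, lysosomal alpha-mannosidase, stood at 223, 396 and 363 CPM in CKO and 314, 308 and 234 CPM in flox (log2 fold change 0.20, SE 0.24). In both genes CKO 1 lay below all or all but 1 of the other libraries. Manba, beta-mannosidase, averaged 28.6 ± 6.20 CPM in CKO and 26.6 ± 2.85 CPM in flox.

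Of the 3 genes for protein and thioester breakdown and progranulin, 2 were positive and 1 negative, and 0 passed. Grn, which encodes progranulin, a precursor cut into granulins in the lysosome, stood at 474, 916 and 994 CPM in CKO and 638, 680.03 and 722 CPM in flox (log2 fold change 0.22, SE 0.27). The CKO libraries lay on both sides of all flox libraries. Ppt1, the thioesterase that removes palmitate from proteins, stood at 216, 369.5 and 225 CPM in CKO and 294, 300.3 and 271 CPM in flox (log2 fold change -0.096, SE 0.23). The flox values lay inside the CKO range. Grn and Ppt1 values had decimals in all 6 libraries. Genes on the opposite strand cover 1.96% of the exon bases of Grn and 3.51% of those of Ppt1, so their counts may be shared. Tpp1, a tripeptidyl peptidase, averaged 189.97 ± 35.4 CPM in CKO and 183 ± 28.1 CPM in flox.

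Tfeb, the transcription factor of the set, stood at 8.09, 12.2 and 13.8 CPM in CKO and 12.5, 10.4 and 8.21 CPM in flox (log2 fold change 0.13, SE 0.30). The ranges overlap almost fully, and its RNA level does not report its activity, which is controlled through its location in the cell. Of the 6 members with the 8-base core in the promoter, 4 were positive, with values from -0.25 (Gla) to 0.28 (Mcoln1) and a median of 0.12. Of the other 30 members with a promoter window 25 were positive, with a median of 0.14.

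**Figure D3:**
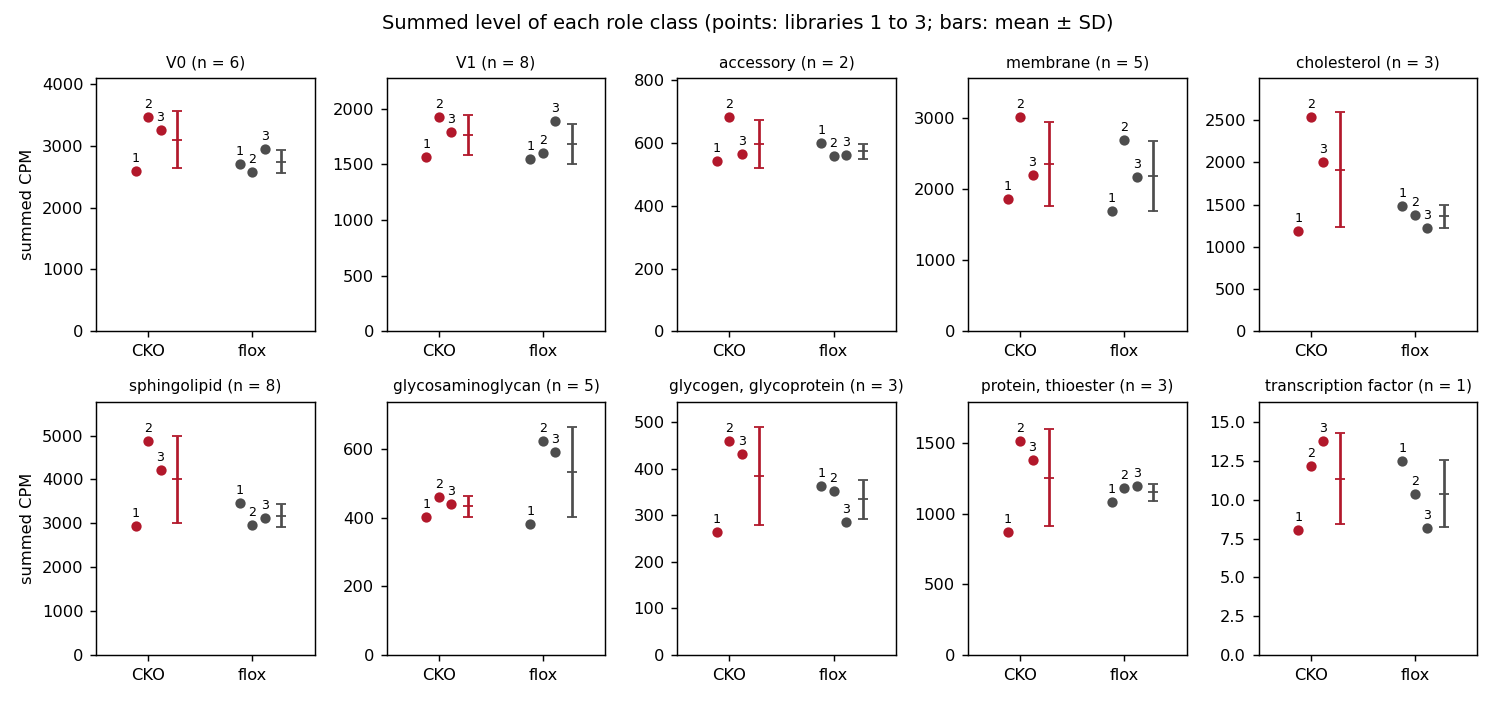
Summed CPM of each role class in each library (points, numbered by replicate) with mean ± SD (bars, n = 3), CKO left of flox. CKO 1 is the lowest or second lowest library in each of the 10 classes, and the flox libraries 2 and 3 stand high in the glycosaminoglycan class through Arsb.

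The direction of the set differed between the haemoglobin-free and haemoglobin-containing libraries. Among the haemoglobin-free libraries, CKO 2 and CKO 3 against flox 1, 43 of 44 members were higher in CKO, with a median log2 ratio of 0.34, against 52.1% of all genes. The exception was Smpd1. Among the haemoglobin-containing libraries, CKO 1 against flox 2 and flox 3, 13 of 44 were higher in CKO, with a median of -0.18, against 49.1% of all genes. Each of these ratios has 1 library on one side and libraries of 1 mouse code on the other, so they have no replicate check and no test. With this class of library as a term in the edgeR fit, 31 of 44 were positive, the median was 0.072, 0 members passed and 2 genes passed in all (0.0148%). The values of 12 members were positive in both classes of library, but no share over all genes stands beside this count. With 43 of 44 positive in the haemoglobin-free libraries, it mostly repeats the 13 positive in the haemoglobin-containing ones. Among the 12 were Sgsh (0.39 haemoglobin-free, 0.53 haemoglobin-containing), Atp6v0a1 (0.24 and 0.50), Atp6v1e1 (0.29 and 0.19), Mcoln1 (0.33 and 0.13) and Npc1 (0.47 and 0.068). Npc2 (0.66 and -0.17), Grn (0.58 and -0.57) and Lamp1 (1.13 and -0.30) pointed opposite ways.

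**Figure D4:**
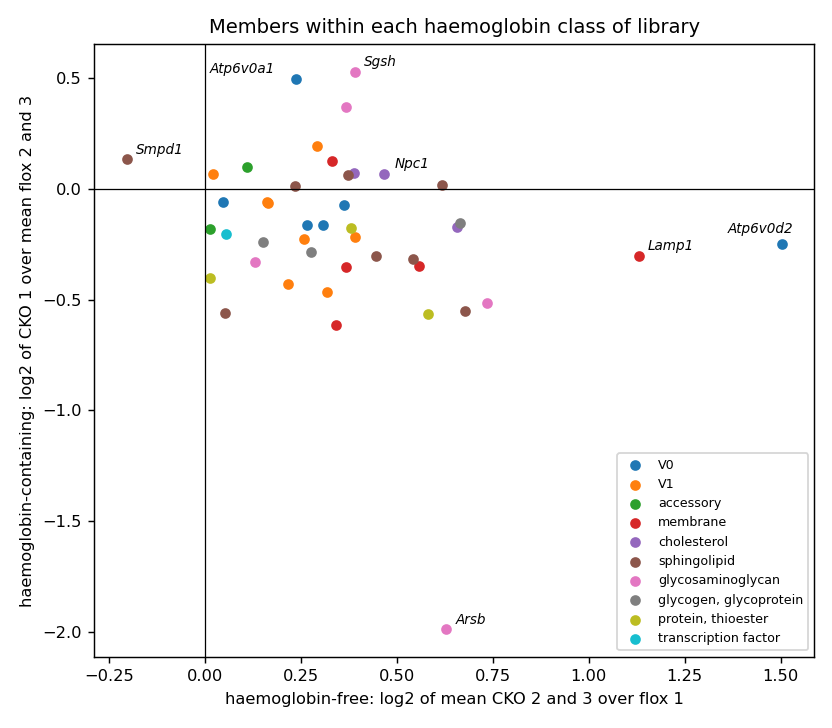
Log2 ratio of CKO over flox for each member within the haemoglobin-free libraries (horizontal axis) and within the haemoglobin-containing libraries (vertical axis), coloured by role. Of 44 points 43 lie right of 0 and 13 lie above 0, with Arsb far below the rest.

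The same libraries set most extremes. CKO 2 was the highest library for 24 members and flox 1 for 0, while CKO 1 was the lowest for 15 and flox 1 for 12. These counts have no share over all genes beside them, so they do not set the 44 genes apart from other genes. CKO 1, the library with the lowest sum over the 44 genes (12214 CPM), also had the most rod transcripts and the fewest microglial marker transcripts. CKO 2, with the highest sum (18959 CPM), had the second highest microglial marker level. Flox 2 had the highest microglial marker level, 12622 CPM, and a middling sum over the 44 genes of 13922 CPM. The part of cell content in the set's values was not tested.

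Libraries of the same mouse code also differed from each other. The median absolute log2 ratio over the 44 genes was 0.25 between CKO 2 and CKO 3 and 0.17 between flox 2 and flox 3, and the median absolute log2 fold change between the groups was 0.16. Over all genes tested the same values were 0.38, 0.30 and 0.21. The ratios within a mouse code compare single libraries, while the group value draws on 3 libraries a group and so varies less. Their sizes are therefore not a like comparison.

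Other lysosomal genes, 89 in number and listed by role, also held no gene past the test. Of these 84 were tested, 58 (69.0%) were positive and 26 negative, and 0 passed in either direction. The share of positive values was 50.6% over all genes tested and 79.5% over the 44 members. Hydrolases and activators were positive in 22 of 30, membrane proteins, transporters and channels in 17 of 22, and further V-ATPase genes in 4 of 8. Enzyme sorting genes were positive in 5 of 9, and transcription factors and nutrient sensors in 10 of 15. The gene of smallest p was Atp13a2, which encodes a lysosomal polyamine transporter, at 33.7, 43.4 and 56.9 CPM in CKO and 27.2, 25.6 and 23.7 CPM in flox. Every CKO library was above every flox library (log2 fold change 0.81, SE 0.22, unadjusted p = 0.00619, adjusted p = 0.9996 by edgeR). Tfec, a relative of TFEB found in macrophages, stood at 3.55, 9.46 and 7.60 CPM in CKO and 1.94, 2.64 and 2.65 CPM in flox (log2 fold change 1.51, SE 0.48, unadjusted p = 0.0131). Its groups did not overlap, nor did those of Rptor, which encodes the mTORC1 scaffold raptor, at 18.2 ± 1.10 CPM in CKO and 13.3 ± 1.30 CPM in flox (log2 fold change 0.45, SE 0.21). Smpdl3a, a phosphodiesterase related to acid sphingomyelinase, stood at 61.9, 182 and 121 CPM in CKO and 90.1, 49.6 and 69.4 CPM in flox (log2 fold change 0.80, SE 0.39), with CKO 1 inside the flox range. Of the 84 genes the groups stood apart with CKO higher for 5 (Atp13a2, Tfec, Rptor, Rnasek and Acp2) and with CKO lower for 1, Atp6v0a2. These are 5.95% and 1.19% of the list, against 3.88% and 4.12% of all genes.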

How the data were processed

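The authors deposited 1 table of estimated counts per gene symbol, unscaled, for 6 libraries, and 16.6% of its values have decimals. The submitters' processing notes name fastp 0.18.0, HISAT2 2.2.4 and mm10; the sources used here give no counting tool, gene annotation or strand setting. Of 21956 rows, 83 without a symbol (0.0122% to 0.0185% of counts) were left out, and 22 repeated rows were summed. Counts were rounded and tested with edgeR 4.0.16 (R 4.3.3): TMM, filterByExpr, a quasi-likelihood fit on the group (robust), prior count 0.125, Benjamini-Hochberg adjustment at 0.05. SE is the absolute log2 fold change over the square root of F, and intervals are 95%. A count of 0 allows up to 3 counts, 0.150 to 0.223 CPM, and covers counting error only. Exon lengths are merged GENCODE M21 exons (GRCm38, the assembly behind mm10), minor transcripts included, which understates levels per kilobase. Promoters are RefSeq's. Haemoglobin above 100 CPM defines haemoglobin-containing libraries. Values of 12 members had decimals in a library, and 5 members had over 10% of their exon bases in another gene.

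The members and lists were chosen with earlier results of these data known. Named in full were, in each of 10 role classes, the 2 members of smallest p and the one of highest level per length, with Cd36, Tfeb, Atp6v0d1, Atp6v0d2, Lipa, Npc1, Npc2 and Psap, and 4 other lysosomal genes of smallest p. Other genes are named by level or as markers. DESeq2 1.42.0, limma-voom with library quality weights (limma 3.58.1), other scalings and filters, and fits with a replicate or haemoglobin term were alternatives. Tests were tried on simulated counts. Protein comparisons were not analysed here.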

Additional observations from a re-analysis of the deposited data

How the results depend on the processing

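With DESeq2, limma-voom, 2 other scalings, 2 other filters, a replicate or haemoglobin term, mouse codes summed, or any library left out, 0 members were called. Genes called over all genes were 0 with edgeR, 23 with DESeq2 and 2 with the haemoglobin term. With library totals as the only scaling the members' median was -0.00954, 20 members were positive, 2 stood apart (4.55%, against 11.2% of all genes), and the signs turned for Atp6ap1 (-0.012), Atp6ap2 (-0.14), Laptm5 (-0.043), Tfeb (-0.00588) and Atp6v0d2 (-0.043); the scaling moves all genes, as stated. With the haemoglobin term Atp6ap2 (-0.084), Man2b1 (-0.0041) and Tfeb (-0.073) turned, with mouse codes summed (median 0.059, 32 positive) Atp6ap2 (-0.098) and Tfeb (-0.044), and with no count filter Atp6ap2 (-0.0051). The titles' replicate numbers do not pair the libraries: same-numbered deviations correlated at -0.32, 0.04 and -0.33, and not every library correlated best with its own number. The replicate block called 0 genes, gave a median of 0.12 with 33 positive, and turned Atp6ap2 (-0.00994).

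With 1 library left out, positive members numbered 24 (without CKO 2) to 38, the median was 0.032 to 0.21, genes called stayed at 0, and members standing apart numbered 2 to 15 (15 without CKO 1, 34.1% against 27.5% of all genes). Ranges that crossed 0 were -0.13 to 0.10 for Atp6ap2, -0.12 to 0.37 for Laptm5, -0.39 to 0.040 for Ppt1, -0.035 to 0.32 for Tfeb, -0.088 to 0.033 for Atp6v0d1, -0.33 to 1.34 for Atp6v0d2 and -0.0057 to 0.62 for Lipa. Of 464 alternative values of named genes 437 kept their sign and 27 did not; the cause was not tested. Of the 44 members, Atp6v0d2, Tfeb, Arsa and Sgsh had the lowest mean levels, at 1.69 to 15.8 CPM by library. Counting error weighs most at such levels. Tfec, outside the set, stood at 1.94 to 9.46 CPM.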
